A study of Homo sapiens with 16 samples.

Results

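The plasminogen activator genes described here are PLAU, PLAT, PLAUR and SERPINE2, found by their symbols in both deposited expression tables of the study. All 4 were present, among 17318 genes in the first table and 18168 in the second, and all 4 passed the filter on low values (at least 1 CPM, reads counted per gene scaled to a common library total, in as many tumours as the smaller group had). The tumours grew from luciferase-bearing U87, a human glioblastoma line in long use, implanted in the brains of nude mice, which lack T cells but keep innate immune cells, vessels and glia. The mice were injected with MSC exosomes holding human anti-Myc siRNA#1 (Myc1, n = 3) or scramble-siRNA#1 (Scr1, n = 4), and in a second experiment anti-Myc siRNA#2 (Myc2, n = 5) or scramble-siRNA#2 (Scr2, n = 4). All tumours were collected at euthanasia and the cells are labelled wild type, and each of the 16 libraries is 1 mouse. In the first experiment doses of 1e9 exosomes in 100 µl went into the retro-orbital sinus every other day from day 28, and the dosing of the second experiment is not given in the sources used here. Myc1 was compared with Scr1 and Myc2 with Scr2, which addresses whether the exosomal siRNA altered the tumour transcriptome.

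PLAU encodes urokinase and PLAT the tissue-type activator, serine proteases that cleave plasminogen to plasmin, which degrades fibrin and matrix and activates further proteases. PLAUR encodes the urokinase receptor, a surface protein anchored by a lipid tail that holds urokinase at the cell edge. SERPINE2, also called protease nexin 1 or glia-derived nexin, encodes a secreted serpin that inactivates thrombin, urokinase and the tissue-type activator. In glioma this system is known for its part in invasion along matrix and vessels.

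MYC and its partner MAX bind the E-box CACGTG, AP-1 factors bind TGANTCA, and SP1 binds GC boxes such as GGGCGG. Both strands of the RefSeq promoter windows (GRCh38.p14, 250 bases before to 50 after a transcript start) were searched for these letters. RefSeq windows were matched by symbol for 3 of the 4 members, 5 windows in all. Of these, 3 are shown because they cover the starts of the gene with the lowest p, of the receptor, and of the inhibitor, at the SERPINE2 start whose window holds the one E-box found. Capitals mark the matches.
PLAU, chr10:73910882-73911181, plus strand: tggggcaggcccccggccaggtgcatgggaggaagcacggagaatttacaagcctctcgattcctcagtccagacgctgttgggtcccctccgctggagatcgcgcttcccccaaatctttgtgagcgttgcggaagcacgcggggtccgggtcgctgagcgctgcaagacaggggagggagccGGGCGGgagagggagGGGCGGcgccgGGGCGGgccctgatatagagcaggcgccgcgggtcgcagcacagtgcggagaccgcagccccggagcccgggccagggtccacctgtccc
PLAUR, chr19:43670120-43670419, minus strand: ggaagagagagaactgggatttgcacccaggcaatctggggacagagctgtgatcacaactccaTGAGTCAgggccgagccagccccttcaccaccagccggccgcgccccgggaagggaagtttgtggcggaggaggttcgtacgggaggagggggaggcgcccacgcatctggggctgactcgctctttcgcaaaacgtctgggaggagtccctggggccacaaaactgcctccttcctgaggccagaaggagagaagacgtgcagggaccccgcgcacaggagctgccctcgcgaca
SERPINE2, chr2:224031429-224031728, minus strand: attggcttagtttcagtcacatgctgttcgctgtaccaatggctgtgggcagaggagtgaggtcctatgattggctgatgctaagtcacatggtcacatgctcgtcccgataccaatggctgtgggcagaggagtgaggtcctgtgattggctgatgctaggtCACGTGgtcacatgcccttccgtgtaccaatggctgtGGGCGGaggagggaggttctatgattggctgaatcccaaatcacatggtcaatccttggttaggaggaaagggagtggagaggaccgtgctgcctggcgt
The SERPINE2 window held CACGTG at position 164, a motif found in 7.26% of 35116 promoter windows, and 1 GC box. The PLAUR window held TGAGTCA at position 65, and TGANTCA occurs in 7.71% of windows. The PLAU window held 3 GC boxes, a motif in 45% of windows. Of the windows not shown, the second PLAU window (chr10:73910360-73910659) held none of the 3 motifs, and the second SERPINE2 window (chr2:224038591-224038890) held 2 GC boxes and no E-box. The matches do not overlap, and a match of letters is not evidence of binding.

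The tumours expressed the U87 markers VIM, CD44, FN1, NES, TNC and EGFR, at geometric means from 116 to 5280 CPM in the first table and from 172 to 4950 CPM in the second. Library sizes were not given. Scr1 replicate 3 had a lowest value of -2.54 log2 CPM, against -4.91 in the other 6 libraries of its table, and 8.81% of its genes tied at it. Scr1 replicate 4 lay at 61.5 on the first principal component of that table (31.3% of the variance), with the other 6 between -44.7 and 29.5. Scr2 replicates 1 and 4 stood apart on the first principal component of the second table (43.8% of the variance), at 63.4 and 94.4, with the other 7 libraries between -47.6 and -2.74. The same 2 libraries had the highest lowest values of that table, -4.38 and -3.38 log2 CPM, with 2.58% and 5.13% of genes tied at them. In the other 7 the lowest value was -5.16 to -4.99, with 0.782% to 1.84% of genes tied. The endothelial markers with values (3 of 6 in the first table, 4 of 6 in the second) summed to 2.28 to 3.22 CPM in Myc1, 1.81 to 3.74 CPM in Scr1, 4.07 to 12.9 CPM in Myc2 and 3.42 to 5.42 CPM in Scr2. Of the microglia and macrophage markers 4 of 7 had values in each table and summed to 332 to 403 CPM in Myc1, 247 to 348 CPM in Scr1, 178 to 277 CPM in Myc2 and 164 to 270 CPM in Scr2, nearly all of it CD68. The 3 pericyte markers, PDGFRB, CSPG4 and RGS5, summed to 219 to 315 CPM in Myc1 and 241 to 409 CPM in Scr1. In Myc2 they summed to 295 to 416 CPM and in Scr2 to 164 to 401 CPM, nearly all of it PDGFRB and CSPG4. Astrocyte markers summed to at most 16.1 CPM and neuron markers to at most 19.5 CPM in any tumour. The part of host cells in the results below was not tested, and in these bulk libraries fewer cells of a type and less RNA per cell cannot be told apart. MYC, the siRNA target, ranged from 14.3 to 38.1 CPM in Myc1 and 21.2 to 108 CPM in Scr1, and from 42.3 to 72.1 CPM in Myc2 and 25.9 to 47.1 CPM in Scr2. The MYC log2 difference was -0.83 in the first experiment (limma adjusted p = 0.996) and 0.57 in the second (limma unadjusted p = 0.0208, adjusted p = 0.37). The first was -0.39 without Scr1 replicate 4 and -0.0567 without Scr1 replicates 3 and 4, and the second was 0.40 without Scr2 replicates 1 and 4. Here and below, leaving out these pairs leaves only Scr1 replicates 1 and 2, or Scr2 replicates 2 and 3, as the control group. The second goes against the label, so Myc2 and Scr2 below mean the libraries labelled Myc2 and Scr2.

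All 4 genes were abundant, each above at least 90.7% of genes per unit of length. Per kilobase of exon (GENCODE v29 union of exons), PLAU had a geometric mean of 256 CPM per kb in the first table and 182 CPM per kb in the second, above 98.7% and 98.5% of genes. SERPINE2 followed at 141 and 68.6 CPM per kb. PLAT stood at 54.0 and 39.5 and PLAUR at 53.4 and 40.7 CPM per kb. PLAU exceeded SERPINE2 per kilobase in 6 of 7 tumours and 8 of 9 tumours, and it exceeded PLAT and PLAUR in every tumour of both tables. PLAT and PLAUR had no fixed order: PLAT was the higher in 3 of 7 and 3 of 9 tumours. The tables were normalized separately, so levels are not compared between them.

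None of the 4 genes passed the test in either experiment. PLAU was the only one with an unadjusted p under 0.05, in the second experiment. Limma called 0% of 13933 genes at an adjusted p under 0.05 for siRNA 1 and 0% of 14208 genes for siRNA 2. At an unadjusted p under 0.05 it called 3.48% and 13.4% of genes, against 0 of 4 and 1 of 4 members. Mean log2 CPM was above the Scr mean for 3 of 4 members in Myc1 and 4 of 4 in Myc2, beside 49.5% and 48.2% of all genes tested. The median log2 difference over the members was 0.14 in the first experiment and 0.20 in the second (all genes, -0.00283 and -0.0183). No member had groups that did not overlap, as 4.21% and 3.01% of tested genes did.

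**Figure D1:**
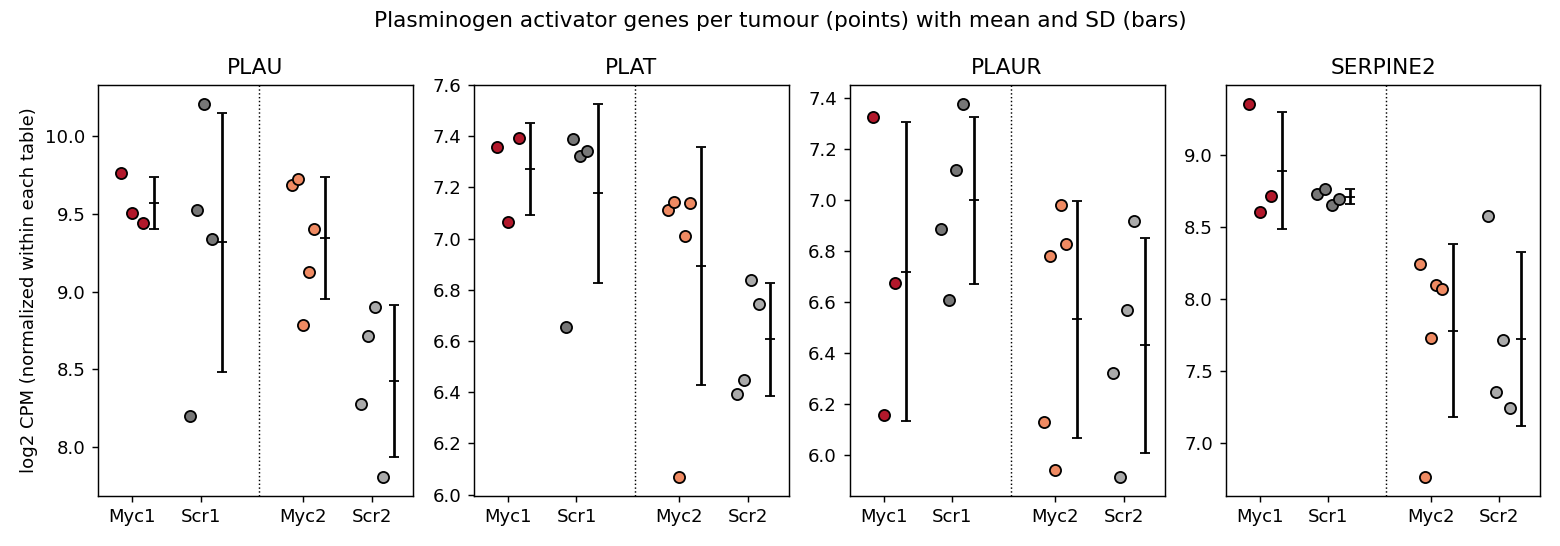
Log2 CPM of PLAU, PLAT, PLAUR and SERPINE2 in each tumour (points), with the mean and SD of each group (bars); the dotted line separates the 2 tables, whose levels are not comparable. The widest separation is PLAU in the second experiment, where 4 of 5 Myc2 tumours lie above all 4 Scr2 tumours.

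PLAU, the urokinase gene (ENSG00000122861), held 823, 845, 441, 558 and 676 CPM in Myc2 tumours 1 to 5, and 310.3, 420.4, 478 and 224 CPM in Scr2 tumours 1 to 4. All Myc2 tumours but replicate 3 were above the highest Scr2 tumour, and Myc2 replicate 3 lay between Scr2 replicates 2 and 3, so the groups overlapped at that point. The means were 9.34 ± 0.39 log2 CPM in Myc2 (SD, n = 5) and 8.43 ± 0.49 in Scr2 (SD, n = 4). The log2 difference was 0.92 ± 0.26 (SE; 95% interval 0.34 to 1.5), a 1.89-fold higher level. Its unadjusted limma p was 0.00486, rank 133 of 14208 genes, and its limma adjusted p 0.37. The exact two-sided permutation test over the 126 arrangements gave p = 0.0238. The 2 Scr2 libraries that stood apart were the 2 lowest for PLAU. Without them, against Scr2 replicates 2 and 3 alone, the log2 difference was 0.54 (limma unadjusted p = 0.0627).

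In the first experiment PLAU held 868, 727 and 697 CPM in Myc1 tumours and 294, 735, 1184 and 647 CPM in Scr1 tumours. The Myc1 tumours sat close together inside a Scr1 range that spanned 4.02-fold, from replicate 1 at the bottom to replicate 3 at the top. The means were 9.57 ± 0.17 log2 CPM in Myc1 (SD, n = 3) and 9.32 ± 0.83 in Scr1 (SD, n = 4), a log2 difference of 0.25 ± 0.37 (SE), within the spread between mice (limma adjusted p = 0.996; exact permutation p = 0.686, where 0.0286 is the smallest this design allows). This difference depended on both ends of the Scr1 range: it was -0.12 without Scr1 replicate 1 and 0.55 without Scr1 replicate 3, and 0.71 without Scr1 replicates 3 and 4. The PLAU difference of siRNA 1 minus that of siRNA 2 was -0.66 ± 0.48 (SE; 95% interval -1.68 to 0.35; limma adjusted p = 0.582; exact permutation p = 0.32 over 4410 arrangements), so a difference between the siRNA pairs was not detected. The same quantity was -0.38 ± 0.41 for PLAUR, -0.19 ± 0.34 for PLAT and 0.12 ± 0.44 for SERPINE2, with limma adjusted p of 0.708, 0.826 and 0.924. Of all genes, 8.75% had an unadjusted p under 0.05 in that test and 0% passed adjustment, and 0 of the 4 members had one.

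PLAT, the tissue-type activator gene (ENSG00000104368), held 138, 142, 67.1, 129 and 141 CPM in Myc2 tumours and 84.1, 87.3, 115 and 107 CPM in Scr2 tumours. Here too 4 of 5 Myc2 tumours stood above every Scr2 tumour, while Myc2 replicate 3 was the lowest of the 9. The means were 6.89 ± 0.46 log2 CPM in Myc2 (SD, n = 5) and 6.61 ± 0.22 in Scr2 (SD, n = 4), a log2 difference of 0.29 ± 0.23 (SE), with a limma adjusted p of 0.521 and an exact permutation p of 0.302. Without Myc2 replicate 3 the log2 difference was 0.49 (limma unadjusted p = 0.0101, adjusted p = 0.366), and without Scr2 replicates 1 and 4 it was 0.25.

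In the first experiment PLAT held 164, 134 and 168 CPM in Myc1 tumours and 101, 167, 160.3 and 162 CPM in Scr1 tumours. Apart from Scr1 replicate 1 and Myc1 replicate 2, which were the 2 lowest, the tumours lay between 160.3 and 168 CPM. The log2 difference was 0.09 ± 0.23 (SE; limma adjusted p = 0.996; exact permutation p = 0.771), and it was -0.08 without Scr1 replicate 1 and 0.25 without Scr1 replicates 3 and 4.

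PLAUR, the urokinase receptor gene (ENSG00000011422), held 160.4, 71.2 and 102 CPM in Myc1 tumours and 118, 97.6, 139 and 166 CPM in Scr1 tumours. Myc1 replicate 2 was the lowest of the 7, and the other 2 Myc1 tumours fell inside the Scr1 range. The means were 6.72 ± 0.59 log2 CPM in Myc1 (SD, n = 3) and 7.0 ± 0.33 in Scr1 (SD, n = 4), a log2 difference of -0.28 ± 0.28 (SE; limma adjusted p = 0.996; exact permutation p = 0.457). The difference was 0.00193 without Myc1 replicate 2 and -0.58 without Myc1 replicate 1, and -0.0293 without Scr1 replicates 3 and 4.

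In the second experiment PLAUR held 69.9, 109.9, 61.3, 126 and 114 CPM in Myc2 tumours and 79.8, 60.2, 94.9 and 121 CPM in Scr2 tumours. The order of tumours differed from that of its ligand: Scr2 replicate 4, lowest of the 9 tumours for PLAU, was second highest for PLAUR, and Myc2 replicate 1, second highest for PLAU, was the third lowest for PLAUR. The log2 difference was 0.10 ± 0.26 (SE; 95% interval -0.48 to 0.68; limma adjusted p = 0.85; exact permutation p = 0.73), and 0.29 without Scr2 replicates 1 and 4.

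SERPINE2, the protease nexin gene (ENSG00000135919) with the E-box in 1 of its 2 promoter windows, held 657, 390.0 and 420.3 CPM in Myc1 tumours and 425, 436, 402 and 415 CPM in Scr1 tumours. The 4 Scr1 tumours differed little, with an SD of 0.0498 log2 units, with Myc1 replicate 1 well above their range and Myc1 replicate 2 just below it. The log2 difference was 0.18 ± 0.21 (SE; limma adjusted p = 0.996; exact permutation p = 0.571), and it was -0.0511 without Myc1 replicate 1. In the second experiment SERPINE2 held 303, 109, 212, 274 and 269 CPM in Myc2 tumours and 382, 163, 210.2 and 152 CPM in Scr2 tumours. Both groups spread widely there, with SDs of 0.60 in each, and the lowest and the highest tumour were Myc2 replicate 2 and Scr2 replicate 1. The log2 difference was 0.06 ± 0.34 (SE; 95% interval -0.68 to 0.80; limma adjusted p = 0.938; exact permutation p = 0.913), and 0.25 without Scr2 replicates 1 and 4.

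**Figure D2:**
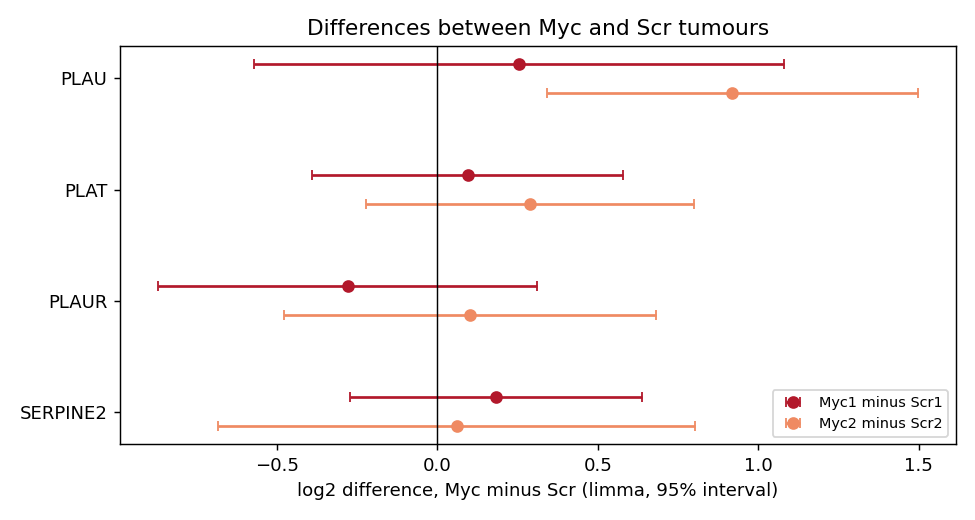
Log2 difference of Myc minus Scr tumours with its 95% limma interval for the 4 genes in each experiment. PLAU in the second experiment is the only interval above 0, at 0.34 to 1.5, and it did not pass adjustment over all genes.

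The within-group spread was largest for PLAU in the first experiment (pooled SD 0.65 log2 units, beside a median of 0.37 over all genes tested). In the second it was largest for SERPINE2 (0.60, beside 0.38). The PLAU spread in the first experiment lay mostly in Scr1 (SD 0.83, beside 0.17 in Myc1). PLAUR (0.45 in each experiment) and PLAU in the second (0.44) were also above the median. PLAT (0.29 and 0.38) and SERPINE2 in the first (0.26) were below it. The within-library log2 ratio of PLAU to SERPINE2, an activator against an inhibitor, averaged 1.56 ± 0.80 in Myc2 (SD, n = 5) and 0.70 ± 0.75 in Scr2 (SD, n = 4), with 2 of 5 Myc2 tumours above every Scr2 tumour. The difference of these means was 0.86, and it was 0.29 without Scr2 replicates 1 and 4, 0.52 without Scr2 replicate 1 and 0.51 without Myc2 replicate 2, which had the highest ratio. In the first experiment it averaged 0.68 ± 0.25 in Myc1 (SD, n = 3) and 0.61 ± 0.86 in Scr1 (SD, n = 4), a difference of 0.07 that ranged from -0.31 without Scr1 replicate 1 to 0.39 without Scr1 replicate 3, and was 0.57 without Scr1 replicates 3 and 4. The ratio of PLAT to SERPINE2 differed less in the second experiment, by 0.23, with 1 of 5 Myc2 tumours above every Scr2 tumour. Its difference in the first was -0.09. These ratios are given as a description, without a test.

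In the second table PLAU and PLAT had a Pearson r of 0.622 (exact permutation p = 0.0758) and a Spearman rho of 0.833 (exact permutation p = 0.00827) over 9 tumours. Over the 12 relations between members the adjusted values were 0.353 and 0.0992, so neither passed. PLAUR and PLAT had a slightly larger Pearson r of 0.66 there (exact permutation p = 0.0575; adjusted p = 0.353) and a rho of 0.5 (exact permutation p = 0.178). Their r was 0.251 without the 2 tumours farthest from the median of PLAUR, and 0.669 after centring on group means. For PLAU and PLAT, without the 2 tumours farthest from the median of PLAU, r was 0.787, and after centring on group means it was 0.541. In the first table r was 0.814 (exact permutation p = 0.0883; adjusted p = 0.353) and rho 0.25 (exact permutation p = 0.595) over 7 tumours. The PLAU and PLAT r in that table was 0.0284 without Scr1 replicates 1 and 3 together, the ends of the PLAU range. Scr1 replicate 1 was the lowest of the 7 tumours for both genes. Scr1 replicate 3 had a PLAT of 7.32 log2 CPM, inside the range of the table, and r was not computed without either tumour alone. The largest rho in the first table was 0.429, between PLAT and SERPINE2 (exact permutation p = 0.354). PLAU and PLAUR, ligand and receptor, had r of 0.123 and 0.0226 in the 2 tables (exact permutation p = 0.817 and 0.953). The smallest adjusted p among the 12 Pearson relations was 0.353.

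**Figure D3:**
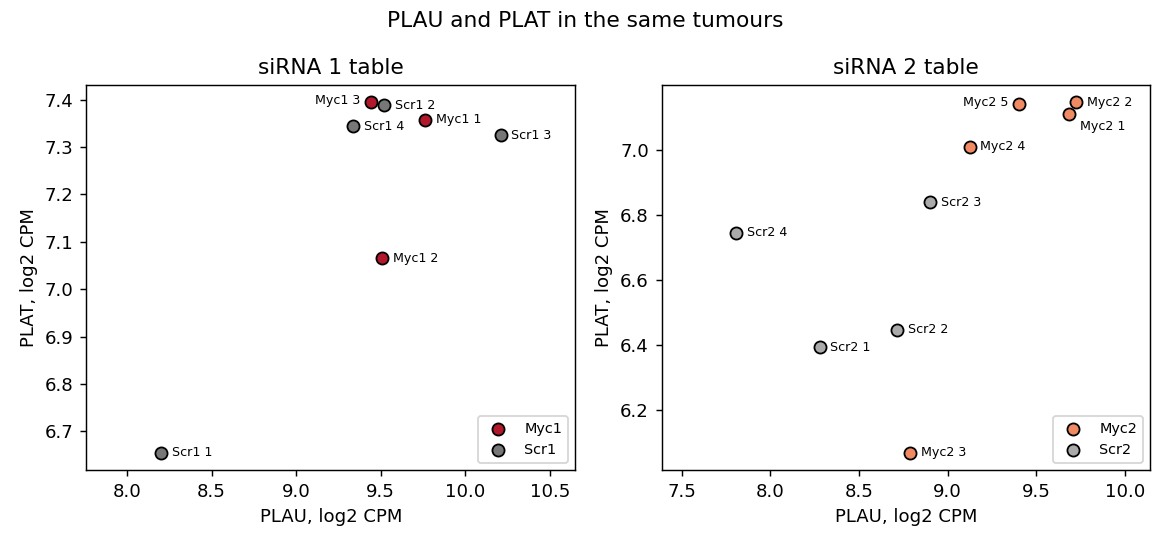
PLAT against PLAU (log2 CPM) in each tumour of the first table (left) and the second (right), coloured by group. In the left panel Scr1 replicate 1 lies apart at the lower left, and in the right panel Myc2 replicate 3 has the lowest PLAT of the 9 tumours.

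Genes whose levels moved most like each member were ranked by the smaller of 2 Pearson r, over 7 and 9 group-centred tumours, among 13655 other genes. They share libraries and normalization, so the r is a description. GSDMB (0.903 and 0.903), RP11-244O19.1 (0.922 and 0.902) and FKBP10 (0.901 and 0.935) were most like PLAU. BDKRB1 (0.888 and 0.928), P2RY6 (0.855 and 0.883) and ANGPTL2 (0.854 and 0.972) were most like PLAT. ACOX2 (0.934 and 0.919), AC022007.5 (0.866 and 0.936) and ALDH1B1 (0.856 and 0.899) were most like PLAUR. FOXP1 (0.942 and 0.938), RAP1A (0.897 and 0.883) and TRAM1L1 (0.873 and 0.878) were most like SERPINE2. PLAU ranked 296 among the genes most like PLAT, and no other member ranked higher for any of the 4.

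The wider system was followed through 5 lists, of inhibitors, of plasminogen and its surface receptors, of endocytic and adhesion partners, of coagulation and thrombin genes, and of plasmin targets. In the first experiment 32 of the 50 listed genes were tested and 18 of them lay above 0, with a median log2 difference of 0.0463. Of the 32, 2 were higher at an unadjusted p under 0.05 and 2 lower, where 1.96% and 1.52% of all genes were. In the second, 33 were tested and 22 lay above 0, with a median of 0.187, and 5 were higher and 0 lower, where 7% and 6.36% of all genes were. Limma passed 0 of the listed genes after adjustment in either experiment. The split above 0 depended on scaling: with libraries centred on reference genes, 11 of 32 lay above 0 in the first experiment and 27 of 33 in the second, where the median of all genes itself moved to -0.121 and 0.205.

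Among inhibitors, SERPINI1, neuroserpin, an inhibitor of the tissue-type activator, was scarce, at 2.86, 4.14 and 11.7 CPM in Myc1 tumours and 0.308, 2.14, 3.11 and 0.694 CPM in Scr1 tumours. Its log2 difference was 2.24 ± 0.77 (SE; limma unadjusted p = 0.0138, adjusted p = 0.996) in the first experiment and 0.99 ± 0.47 (SE; limma unadjusted p = 0.0596) in the second. SERPINF2, the gene of the main plasmin inhibitor alpha-2-antiplasmin, was tested in the second experiment and differed by -0.26 ± 0.82 (SE; limma adjusted p = 0.878).

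Of the plasminogen receptors, none passed the test. ANXA2, which with S100A10 docks plasminogen and the tissue-type activator, differed by -0.32 ± 0.18 (SE) in Myc2 against Scr2 and by -0.20 ± 0.20 in Myc1 against Scr1, and the surface enolase gene ENO1 by -0.17 ± 0.16 and 0.11 ± 0.17. PLGRKT, a transmembrane plasminogen receptor, held 34.1, 29.3 and 39.9 CPM in Myc1 tumours and 15.7, 19.2, 33.9 and 15.5 CPM in Scr1 tumours. Its log2 difference was 0.77 ± 0.30 (SE; limma unadjusted p = 0.0205, adjusted p = 0.996). In the second experiment all 4 tested genes of this list lay below 0, PLGRKT at -0.25 ± 0.36. The PLGRKT difference there was 0.0122 without Scr2 replicate 4 and 0.31 without Scr2 replicates 1 and 4. Without both libraries ANXA2 was at -0.31 and ENO1 at -0.14.

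Among endocytic and adhesion partners, 11 of 12 tested genes lay above 0 in Myc2, with a median log2 difference of 0.55, and 5 of 12 in Myc1, with a median of -0.06. Of all genes tested, 48.2% lay above 0 in Myc2 and 49.5% in Myc1, with medians of -0.0183 and -0.00283. The count for this list was not repeated without Scr2 replicates 1 and 4. LRP1, the receptor that clears activator and inhibitor complexes, held 1746, 2443, 837, 2598 and 1324 CPM in Myc2 tumours and 552, 1807, 1106 and 182 CPM in Scr2 tumours. Its low values were those of Scr2 replicates 1 and 4, and its log2 difference of 1.30 ± 0.58 (SE; limma unadjusted p = 0.0445, adjusted p = 0.37) was 0.22 without them. In the first experiment LRP1 differed by -0.16 ± 0.20 (SE). MRC2, a collagen receptor that associates with the urokinase receptor, differed by 0.79 ± 0.30 and the integrin subunit ITGA3 by 0.69 ± 0.31 (SE; limma adjusted p = 0.37 for both), or 0.31 and 0.06 without these 2 libraries, and in the first experiment by -0.00955 ± 0.20 and -0.27 ± 0.23. ITGB1, the beta-1 integrin subunit, differed by 0.32 ± 0.24 in the second experiment and 0.22 ± 0.29 in the first, or -0.041 and -0.0358 without the libraries that stood apart.

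In the coagulation list, F3, the tissue factor gene that starts clotting, held 113, 162, 31.1, 129.6 and 41.2 CPM in Myc2 tumours and 32.6, 30.6, 9.69 and 17.9 CPM in Scr2 tumours. Only Myc2 replicate 3 fell inside the Scr2 range. Its log2 difference was 1.95 ± 0.52 (SE; limma unadjusted p = 0.00309, adjusted p = 0.37), and 2.2 without Scr2 replicates 1 and 4, beside 0.60 ± 0.46 in the first experiment. THBD, thrombomodulin, which turns thrombin from clotting to anticoagulation, differed by 0.94 ± 0.38 at a mean of 1.22 log2 CPM in Myc2 and 0.29 in Scr2, and by 0.61 ± 0.53 in the first experiment. F2RL1, a protease-activated receptor, differed by -0.79 ± 0.31 in the first experiment (limma unadjusted p = 0.0238, adjusted p = 0.996) and by -0.37 ± 0.38 in the second. Its difference was -0.69 without Scr1 replicates 3 and 4 in the first, and 0.08 without Scr2 replicates 1 and 4 in the second. The tissue factor pathway inhibitor genes TFPI2 and TFPI differed by 0.13 ± 0.35 and 0.09 ± 0.28 in the second experiment. In the first they differed by 0.03 ± 0.21 and 0.21 ± 0.27, and all 4 values were within their errors. PROCR, the protein C receptor gene, differed by -0.50 ± 0.25 in the second experiment (SE; limma unadjusted p = 0.0707, adjusted p = 0.372), or -0.10 without Scr2 replicates 1 and 4, and by 0.09 ± 0.21 in the first.

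Of the plasmin targets, TGFB1, whose latent product plasmin can activate, held 120.2, 142 and 150.4 CPM in Myc1 tumours and 189.6, 202, 219.6 and 360.3 CPM in Scr1 tumours. These groups did not overlap, as for 4.21% of genes in either direction. The log2 difference was -0.78 ± 0.24 (SE; limma unadjusted p = 0.0057, adjusted p = 0.996), and -0.52 without Scr1 replicates 3 and 4. In the second experiment the TGFB1 difference had the other sign, at 0.34 ± 0.19 (SE; limma unadjusted p = 0.0967, adjusted p = 0.391), with 3 of 5 Myc2 tumours above every Scr2 tumour, and it was 0.22 without Scr2 replicates 1 and 4. MMP2, a gelatinase, differed by 0.70 ± 0.34 in the second experiment and -0.05 ± 0.20 in the first, and FN1, fibronectin, by 0.22 ± 0.44 and 0.06 ± 0.26. Without Scr2 replicates 1 and 4 the second experiment's difference was 0.0414 for MMP2 and -0.57 for FN1.

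**Figure D4:**
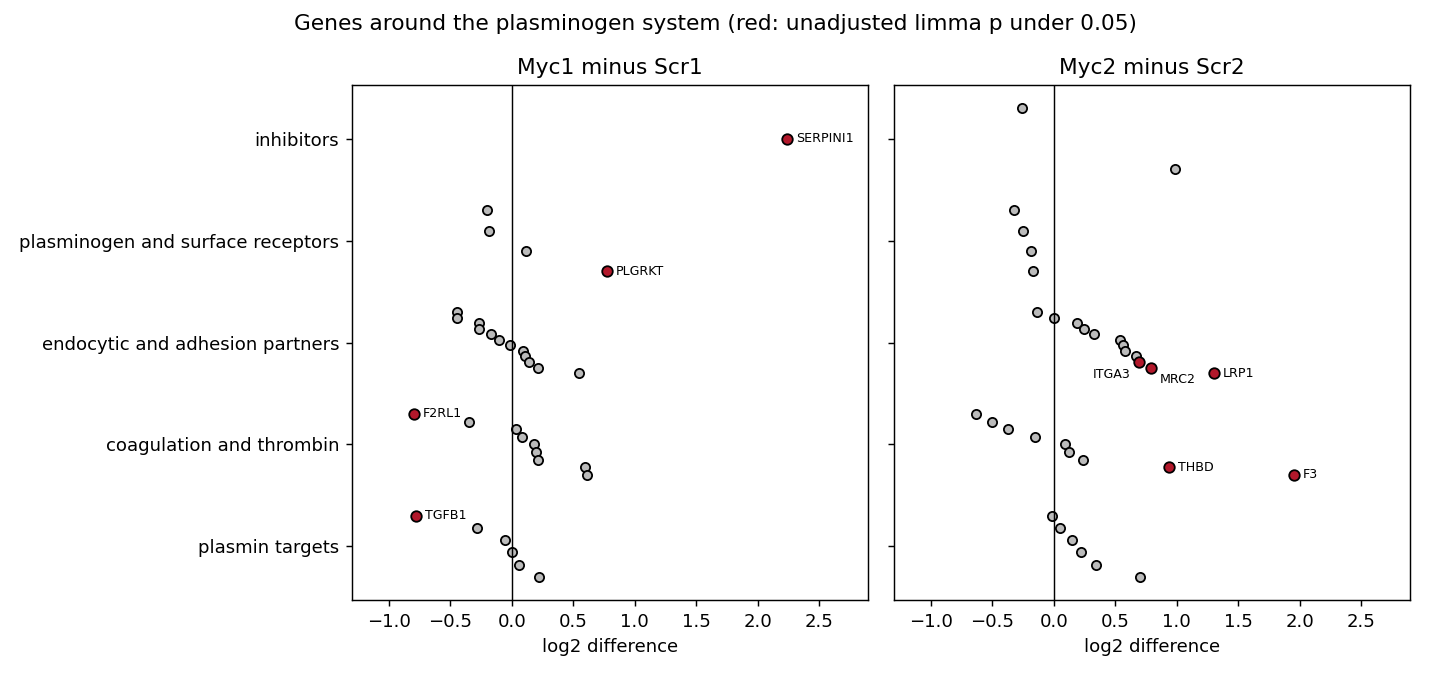
Log2 difference of Myc minus Scr tumours for every tested gene of the 5 lists in the first (left) and second (right) experiment, with genes at an unadjusted limma p under 0.05 in red. On the right the 5 red genes all lie above 0, and F3 lies farthest, at 1.95.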

How the data were processed

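RNA was sequenced from 16 U87 xenografts (RNA integrity number of at least 7.2, Illumina NextSeq, per the labels' protocols). STAR 2.6.0b, bcl2fastq 2.20.0 and Picard, with hg19 and mm10, are named by the submitters' processing notes, without roles. How genes were counted, with which annotation, and how mouse reads were treated is not given in the sources used here. For each experiment the authors deposited log2 values in a table of its own. The values themselves show log2 CPM, quantile-normalized within a table, since unlogged they sum to between 995054 and 998392 in each library and their sorted values coincide apart from ties, so a shift of most genes at once cannot be seen. Depth is unknown.

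Each pair of groups was fitted in its own table with limma 3.58.1 (R 4.3.3; trend and robust empirical Bayes) on the deposited log2 values. Genes needed at least 1 CPM in 3 tumours (siRNA 1) or 4 (siRNA 2). Benjamini-Hochberg adjustment ran over all tested genes, with a threshold of 0.05. One fit over the 4 groups tested the difference of the 2 effects. Single genes also had exact two-sided permutation tests. The fit was tested on simulated data in which 200 genes were moved by 2 log2 units. It recovered 74.5% of them for siRNA 1 and 83.5% for siRNA 2. Smaller changes, such as the differences of the members, were not simulated. Limma p-values set a difference against the spread between mice, moderated over genes. Genes named are the members, MYC, list genes at an unadjusted p under 0.05 or among the 2 most abundant of a list, and the 3 genes most like each member. The members and lists were chosen with earlier results of these data known, and 1 listed gene is not reported here. Exon lengths came from GENCODE v29 (96.3% and 96.1% of genes matched).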

Additional observations from a re-analysis of the deposited data

Results flagged for a closer look

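In 12 group and gene combinations of 4 or 5 tumours, 2 held a tumour far from the others of its group, and chance flags about 1 in 20. PLAT in Scr1 replicate 1 was 6.65 log2 CPM, with the other 3 Scr1 tumours between 7.32 and 7.39. PLAT in Myc2 replicate 3 was 6.07 log2 CPM, with the other 4 Myc2 tumours between 7.01 and 7.15. Scr1 replicate 1 was also the lowest of its table for PLAU, and Myc2 replicate 3 the lowest of its group for PLAU, PLAUR, F3 and LRP1.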

How the results depend on the processing

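No paired analysis was possible because the labels give no replicate numbers shared between groups. PLAU in the second experiment stayed above 0 in all 17 alternatives, from 0.54 without Scr2 replicates 1 and 4 to 1.14 with reference gene centring, with an adjusted p from 0.108 to 0.999, and none of the 4 genes passed the threshold in any alternative of either comparison or of their difference. Leaving out 1 library gave PLAU 0.713 to 1.08 and PLAT 0.217 to 0.495 in the second experiment. It turned the sign of the others, with ranges of -0.119 to 0.551 for PLAU, -0.08 to 0.198 for PLAT, -0.584 to 0.00193 for PLAUR and -0.0511 to 0.325 for SERPINE2 in the first experiment. In the second they were -0.0697 to 0.265 for PLAUR and -0.0997 to 0.344 for SERPINE2, and -0.163 to 0.281 for the SERPINE2 difference between experiments. Centring on reference genes shifted the median of all genes to -0.121 in the first experiment and 0.205 in the second. It gave -0.024 for PLAT in the first and -0.219 for the SERPINE2 difference between experiments. The number of genes called over the whole table was 1 in the first experiment with at least 5 CPM, 2 in the second without Scr2 replicates 1 and 4, and 0 to 2 and 0 to 9 with 1 library left out. Listed genes at an unadjusted p under 0.05 numbered 1 to 7 in the first experiment and 2 to 11 in the second with 1 library left out, and 3 in the second with array weights and 8 with reference gene centring; the settings for this count, and those for MYC and the PLAU to SERPINE2 ratio, were chosen after seeing the data. Without the libraries that stood apart the counts were 4 (Scr1 replicates 3 and 4) and 4 (Scr2 replicates 1 and 4). The same count over all tested genes moved as well. It was 181 of 14228 without Myc1 replicate 3 and 955 of 13794 without Scr1 replicate 3. It was 719 of 14389 without Scr2 replicate 4, 2787 of 14416 without Scr2 replicate 3 and 3928 of 14422 without Scr2 replicate 2. For siRNA 2, array weights gave 1098 and reference gene centring 1876 of 14208. Without the pairs that stood apart it was 510 of 14065 and 509 of 14639. The movement was thus not particular to the lists. The causes were not tested.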
